A study of Danio rerio with 370 samples.

Results

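Midkine is a small secreted protein that binds heparin and acts as a growth factor, and with pleiotrophin it forms a family of its own. Zebrafish carry a pair of midkine genes, *mdka* and *mdkb*, and both were followed here as the 2 members chosen from the 32266 genes counted, by their Ensembl identifiers and not by their levels. The identifiers are ENSDARG00000036036 for *mdka* and ENSDARG00000020708 for *mdkb*. The symbol table names both of them MDK, so the copy letters follow Ensembl naming and were not checked against a sequence.

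Midkine signals through surface receptors such as the tyrosine phosphatase PTPRZ1, the kinase ALK and LRP1, and it is held at the cell surface by syndecans and other proteoglycans. In the zebrafish embryo *mdka* is known for its part in floor plate formation and *mdkb* for its part in the dorsal neural tube and neural crest. In the zebrafish retina *mdka* is known from Müller glia, the glia from which neurons regenerate.

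Single cells came from the forebrain (telencephalon and anterior diencephalon) of adult *her4.1:mcherry*; *elavl3:gfp* fish, and they were sequenced with SMART-seq2, which reads full-length cDNA without molecular identifiers. No animal was treated, and all groups share both transgenes. The *her4.1* promoter drives mCherry in radial glia, the stem cells of this tissue, and the *elavl3* promoter drives GFP in neurons. The gates were RG (radial glia, mCherry high and GFP negative), NBN (newborn neurons, mCherry low and GFP positive) and MN (mature neurons, mCherry negative and GFP positive).

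Of 370 sorted cells, 264 passed the quality filters, of which 73 came from the RG gate, 164 from the NBN gate and 27 from the MN gate. RG and NBN cells came from 6 fish (5 to 23 RG and 26 to 28 NBN cells a fish), and MN cells from fish 6 alone, which also is the only fish with its batch label. Reads summed per fish came to 1539845 to 5473055 for RG, 3228221 to 11933343 for NBN and 5154208 for MN cells. The gates were checked by reads of *her4.1* and *elavl3*. *her4.1* reads were found in 68 of 73 RG cells, 12 of 164 NBN cells and 8 of 27 MN cells. These 8 MN cells held only traces, with 1 to 6 *her4.1* reads each. In CPM, as defined below, *her4.1* averaged 4371 over fish in RG and 34.4 in NBN cells, and was 4.85 in MN cells. *elavl3* reads were found in 8 of 73 RG cells, 157 of 164 NBN cells and 26 of 27 MN cells.

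*mdka* was a gene of the RG gate and *mdkb* a gene of all 3 gates. In RG cells both copies stood at like read levels, whereas in NBN cells *mdka* was all but absent from most fish. There *mdkb* stood at a lower level than in RG cells, a difference that did not pass its test in every alternative run. Among the MN cells of the 1 fish sorted for them, *mdkb* was found in nearly every cell and *mdka* in traces.

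The level of a copy is given as CPM, its read counts in the cells of 1 fish and gate scaled by all gene counts of those cells. *mdka* stood at 1584, 1273, 1053, 2531, 2224 and 1423 CPM in the RG gate of fish 1 to 6 (mean 1681 ± 575, SD, n = 6 fish). In the NBN gate of the same fish it stood at 0, 0, 0.335, 15.6, 0.323 and 92.6 CPM (mean 18.1 ± 37.0, SD, n = 6 fish). The gates did not overlap, and within the NBN gate fish 4 and fish 6 stood above the other 4 fish. How common such a separation was among all genes tested was not counted.

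The ratio of *mdka* between the gates of 1 fish was at least 2976-fold in fish 1 and at least 3193-fold in fish 2, taking 3 reads per fish as the floor where the NBN gate had none. It was 3142-fold in fish 3 (95% counting interval 1225 to 11543, exact binomial) and 6883-fold in fish 5 (2354 to 33383), which rest on 4 and 3 NBN reads. It was lower in fish 4 (162-fold, 136 to 195) and in fish 6 (15.4-fold, 13.7 to 17.3). These intervals cover counting error only, and reads of 1 cell are not independent molecules.

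Across all genes, edgeR's quasi-likelihood test (p adjusted by Benjamini-Hochberg) called *mdka* higher in the RG gate, with a log2 fold change of 6.13 (SE 1.57, adjusted p = 0.0161). All 6 fish had this direction, and the call held under every alternative run. Within the batch of fish 1 to 5, that is without fish 6, the log2 fold change was 9.04 (edgeR, adjusted p = 0.00446). Of the 8393 genes tested, 1.81% were called higher in the RG gate and 6.66% lower, and the median log2 fold change was -0.69. The study named *mdka* as a radial glia marker from these same cells, so its direction here is not independent evidence.

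*mdkb* stood at 1671, 1224, 1124, 1697, 2913 and 1242 CPM in the RG gate of fish 1 to 6 (mean 1645 ± 667, SD, n = 6 fish). In the NBN gate it stood at 386, 771, 622, 593, 671 and 405 CPM (mean 575 ± 152, SD, n = 6 fish). The lowest RG fish lay above the highest NBN fish, so that these gates did not overlap either. How many of all genes tested also had no overlap between these gates was not counted.

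Within a fish, the ratio of *mdkb* between the RG and NBN gates ran from 1.59-fold in fish 2 (1.52 to 1.66) to 4.34-fold in fish 5 (4.21 to 4.48). The same edgeR test called it higher in the RG gate, with a log2 fold change of 1.28 (SE 0.369, adjusted p = 0.0366), and within the batch of fish 1 to 5 it was 1.39 (adjusted p = 0.0425). With the fish as a replicate block the *mdkb* log2 fold change was 1.22 and the adjusted p in edgeR's test was 0.0970, so the call was lost. It was also lost without fish 1, 2, 4 or 5 in turn (adjusted p in edgeR's test 0.0576 to 0.115).

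**Figure D1:**
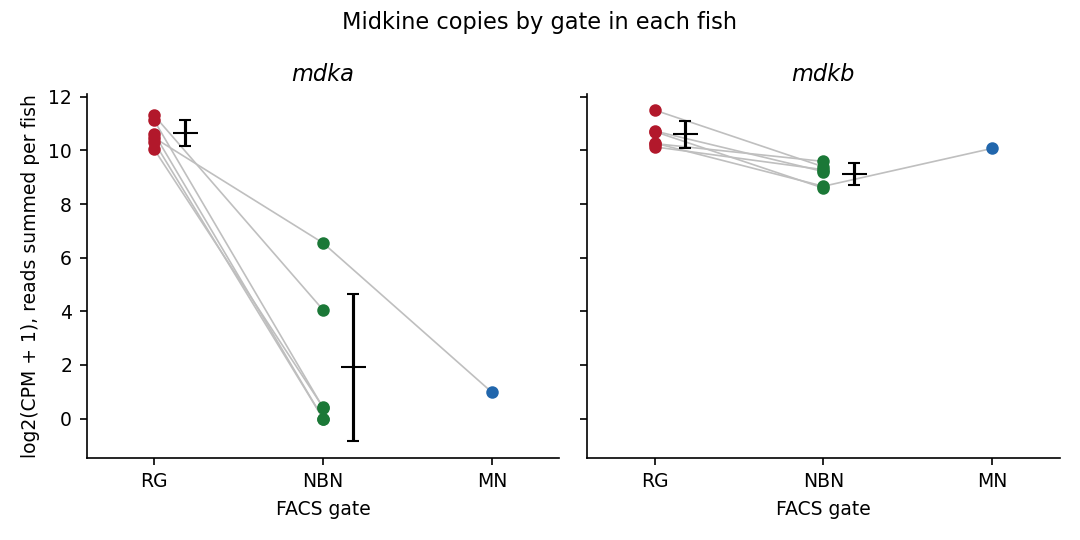
Level of *mdka* (left) and *mdkb* (right) as log2(CPM + 1) of the reads summed per fish, by FACS gate. Each point is 1 fish, grey lines join the gates of 1 fish, and black bars give the mean and SD of 6 fish. *mdka* falls from 1053 to 2531 CPM in the RG gate to 0 to 92.6 CPM in the NBN gate, while *mdkb* stays between 386 and 2913 CPM throughout.

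The NBN level of *mdka* rested on very few cells. The gate held 431 *mdka* reads in all, in 8 of 164 cells, and 3 of these cells held 410 of the reads (95.1%). The cell with the most came from fish 6 and held 250 *mdka* reads (1399 CPM), 155 *mdkb* reads and 491 *her4.1* reads. It held reads of 9047 genes, beside a median of 1634 over the gate, and whether it was a single cell was not tested.

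That cell grouped with the RG cells when cells were clustered without the midkine genes. The other 7 cells held 1 to 111 *mdka* reads, grouped with neurons, and held 0 to 4 *her4.1* reads. Without the RG-like cell, an alternative chosen after seeing the data, *mdka* in the NBN gate of fish 6 was 16.1 CPM, from 1 of 26 cells. The log2 fold change of *mdka* between gates then was 8.38 (edgeR, Benjamini-Hochberg adjusted p = 0.000704) and that of *mdkb* was 1.5 (adjusted p = 0.0203).

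The difference in *mdka* was one of cells with a read as well as of level. In the RG gate *mdka* was found in 54 of 73 cells (74.0%), and in fish 1 to 6 its share was 71.4%, 72.7%, 60%, 80%, 83.3% and 69.6%. In the NBN gate it was found in 8 of 164 cells (4.88%), with 0%, 0%, 3.57%, 10.7%, 7.69% and 7.41% in fish 1 to 6. Every RG share lay above every NBN share, and how many of all genes had shares separated in this way was not counted.

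The *mdka* share differed by 67.9 ± 7.24 percentage points (SD, n = 6 fish; exact two-sided sign-flip permutation p = 0.03125, the smallest that 6 fish can give). Adjusted over the 5 sign-flip tests run, the exact p was 0.0781. With each cell thinned to 20000 reads, *mdka* remained in 52 RG cells and 5 NBN cells, and the median depth per cell was 211548 reads for RG and 270898 for NBN cells. Within the batch of fish 1 to 5 the *mdka* shares differed by 69.1 points.

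*mdkb* was found in 66 of 73 RG cells (90.4%) and in 118 of 164 NBN cells (72.0%). In the RG gate of fish 1 to 6 its share was 100%, 90.9%, 60%, 100%, 91.7% and 87%, and in the NBN gate it was 70.4%, 78.6%, 85.7%, 64.3%, 73.1% and 59.3%. The RG share was higher in 5 of 6 fish and lower in fish 3, which had 5 RG cells. The mean difference was 16.4 ± 22.2 points (SD, n = 6 fish) and did not pass its test (exact two-sided sign-flip permutation p = 0.125, adjusted over the 5 tests 0.208). Within the batch of fish 1 to 5 it was 14.1 points. Leaving out 1 fish at a time, it ran from 12.5 points without fish 4 to 24.8 ± 9.28 points (SD, n = 5 fish) without fish 3. Without fish 3 the exact sign-flip p was 0.0625, the smallest that 5 fish can give.

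**Figure D2:**
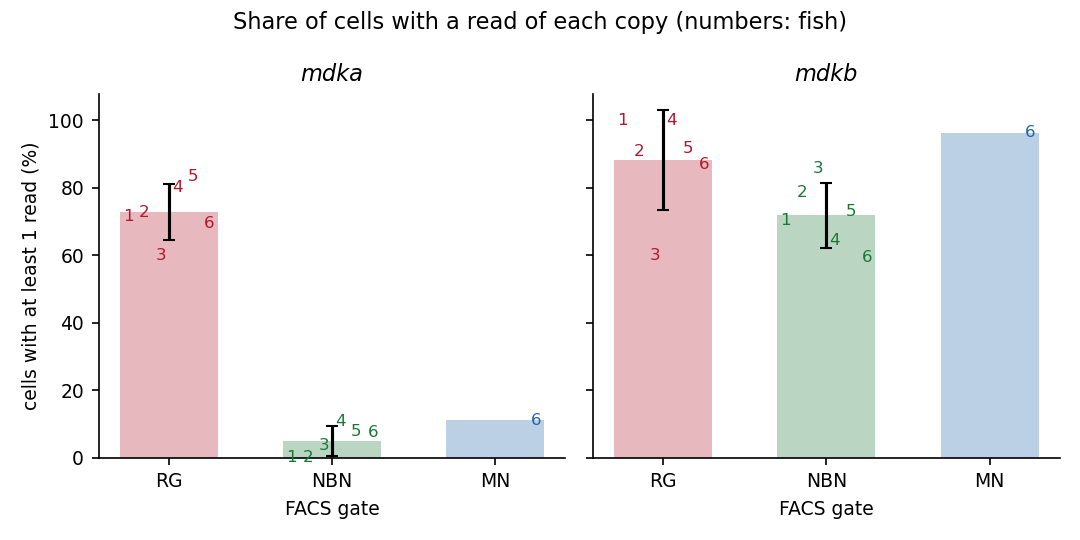
Percentage of cells with at least 1 read of *mdka* (left) and *mdkb* (right) in each FACS gate. Bars and error bars give the mean and SD over fish (no error bar for the MN gate, which holds 1 fish), and each number is the value of that fish. *mdka* lies at 60% to 83.3% in the RG gate and at 0% to 10.7% in the NBN gate, whereas *mdkb* overlaps between the gates.

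Among cells with a read, pooled over fish, the levels overlapped between the gates, and their medians differed. The median *mdka* level was 1942 CPM over the 54 positive RG cells (lowest 23.4, quartiles 642 and 3324) and 21.4 CPM over the 8 positive NBN cells (quartiles 5.76 and 356, highest 1399). More than 1000 CPM of *mdka* was found in 37 RG cells and 1 NBN cell. For *mdkb* the median of positive cells was 1349 CPM for RG and 668 CPM for NBN cells, and 41 RG cells, 30 NBN cells and 9 MN cells held more than 1000 CPM.

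The quality filters removed 98 of 171 RG cells and 5 of 169 NBN cells, so the gates were not filtered alike. Of the 98 RG cells left out (median 57704 reads), 40.8% held *mdka* and 29.6% held *mdkb*, and 51.0% held neither. With all sorted cells kept, the level of both copies remained called higher in the RG gate, and the difference in the *mdkb* share turned to -16.5 points (exact sign-flip permutation p = 0.125).

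Markers of other cells were looked for in the same sums. Of 4 microglial names 3 were found, with a summed level of 0 to 3371 CPM in RG and 0 to 94.2 CPM in NBN cells, nearly all of it from *cd74a* and *cd74b*. The third, *csf1ra*, stood at a mean of 1.35 CPM in RG and at 0 in NBN cells. Reads of *csf1ra*, *cd74a* and *cd74b* were found in 4, 9 and 10 RG cells and in 0, 5 and 2 NBN cells. Ependymal FOXJ1 genes summed to 8.68 to 313 CPM (RG) and 0 to 18.5 CPM (NBN), endothelial genes to at most 62.5 and 2.62 CPM with *kdrl* at 0, and the haemoglobin gene *hbaa1* was at 0. Their part in the midkine levels was not tested.

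As a proportion of all midkine reads, *mdka* made up about the same part in every RG fish. It was 48.7%, 51.0%, 48.4%, 59.9%, 43.3% and 53.4% in the RG gate of fish 1 to 6 (mean 50.8 ± 5.58, SD, n = 6 fish). In the NBN gate it was 0%, 0%, 0.0539%, 2.56%, 0.0482% and 18.6% (mean 3.55 ± 7.45, SD, n = 6 fish). The balance of the copies thus differed between the gates in each fish, without overlap.

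The difference in this proportion was 47.2 ± 7.61 points (SD, n = 6 fish; exact two-sided sign-flip permutation p = 0.03125, adjusted over the 5 tests 0.0781). These are proportions of reads and not of transcripts, since the transcript lengths of the copies were not at hand. A ratio of lengths would multiply the ratio of the copies alike in both gates of a fish. The difference in points would still depend on it. Within the batch of fish 1 to 5 the difference was 49.7 points.

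Co-detection asks whether the copies shared cells more or less often than their shares of cells alone would give. In the RG gate 49 cells held both copies, 17 held *mdkb* only, 5 held *mdka* only and 2 held neither. The share of cells with both was 67.1%, against 66.9% for the product of both shares over the same cells. Per fish, the observed share minus the product was 0, -2.48, -16, 0, -1.39 and 4.73 points in fish 1 to 6 (mean -2.52 ± 7.05, SD, n = 6 fish; exact sign-flip permutation p = 0.625, adjusted 0.625). In fish 1 and 4 every RG cell held *mdkb*, which fixes their value at 0, so only 4 fish could vary (mean -3.79 ± 8.74, SD), and 4 fish cannot give an exact p below 0.125.

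Fish 3 stood apart at -16 points: of its 5 RG cells, 2 held *mdka* only, 2 held *mdkb* only and 1 held both. Without fish 3 the mean was 0.172 points, and without fish 6 it was -3.97 points. With all sorted RG cells the difference was 10.2 ± 6 points (SD, n = 6 fish), positive in 5 of 6 fish (exact sign-flip permutation p = 0.0625), and those cells included the 50 cells outside the filters that held neither copy.

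In the NBN gate 6 cells held both copies, 2 held *mdka* only, 112 held *mdkb* only and 44 held neither. The observed share minus the product was 0.358 ± 0.929 points (SD, n = 6 fish; exact sign-flip permutation p = 0.5, adjusted 0.625). It was fixed at 0 in fish 1 and 2, which had no NBN cell with *mdka*, and the other 4 fish had 1 to 3 such cells, so this test says nothing on co-detection. In the MN gate all 3 cells with *mdka* also held *mdkb*, 23 held *mdkb* only and 1 held neither.

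Within the 49 RG cells with both copies, the Pearson correlation of log2 CPM was 0.291. Over the 6 such NBN cells it was 0.596. Cells of 1 fish share their library preparation, and these values are descriptions.

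**Figure D3:**
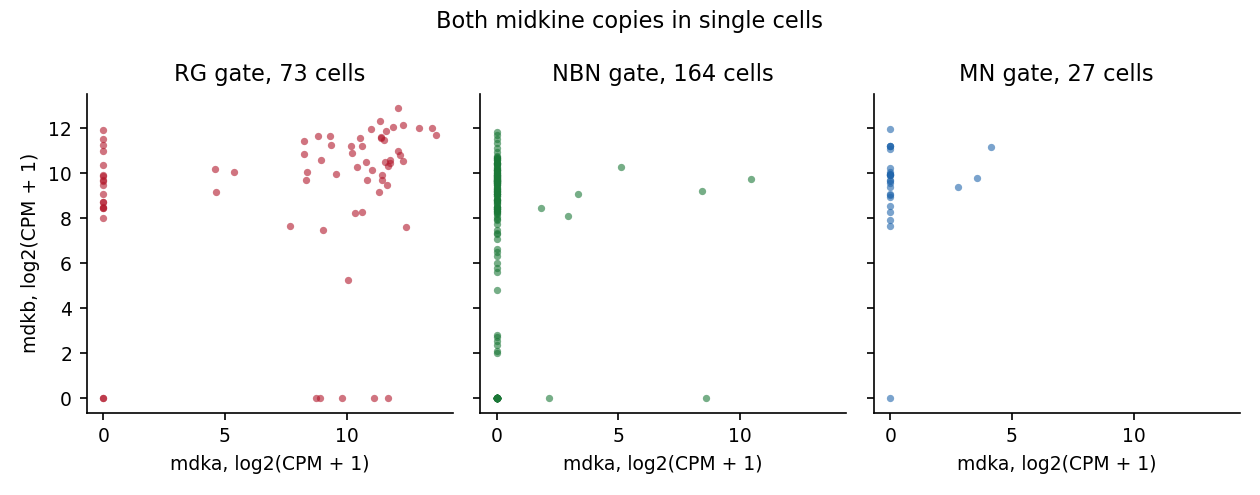
*mdka* (horizontal) and *mdkb* (vertical) as log2(CPM + 1) in each of the 264 cells that passed, by FACS gate, with 1 point a cell. RG cells fill the upper right, with 49 of 73 holding both copies, while NBN and MN cells line up at 0 of *mdka* over a wide range of *mdkb*.

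In fish 6 the MN and NBN gates could be set side by side, with no replicate of the MN gate and thus no test. *mdkb* was at 1081 CPM in MN cells (exact Poisson 95% interval 1052 to 1109) and at 405 CPM in NBN cells (383 to 427), a ratio of 2.67-fold (2.51 to 2.84). As a mean of CPM over cells the ratio was 1.73 on the log2 scale, beside 1.42 from summed reads. *mdkb* was found in 26 of 27 MN cells (96.3%, Clopper-Pearson 81.0% to 99.9%) and in 16 of 27 NBN cells (59.3%, 38.8% to 77.6%). All intervals for the gates of this fish cover counting error only. Reads of the same cell are not independent molecules, and cells of the same fish are not replicates. The MN level lay above the NBN level of all 6 fish and below the RG level of each.

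*mdka* in the MN gate was 0.970 CPM (0.315 to 2.26), from 5 reads in 3 of 27 cells (11.1%, 2.35% to 29.2%), and no cell kept a read after thinning to 20000 reads. The NBN gate of fish 6 stood at 92.6 CPM (82.4 to 104), of which 83.6% came from the 1 RG-like cell.

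The clusters placed the copies by transcriptome in place of sorting colour. Cells were clustered without the midkine, pleiotrophin, receptor and proteoglycan genes, and clusters were named by their markers. The values below are descriptions. The 73 RG-like cells (72 from the RG gate) had a mean of 1692 ± 570 CPM of *mdka* and 1644 ± 667 CPM of *mdkb* (SD, n = 6 fish), with reads in 55 and 66 cells.

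Among the 80 NBN.1-like cells, *mdka* was found in 4 cells (0.858 ± 1.71 CPM, SD, n = 6 fish) and *mdkb* in 63 cells (516 ± 144 CPM). Among the 57 NBN.2-like cells, *mdka* was found in 3 cells (13.9 ± 15.8 CPM, SD, n = 4 fish) and *mdkb* in 32 cells (531 ± 303 CPM). Over pooled cells the share with *mdkb* was 78.8% in the first of these clusters and 56.1% in the second, at a median depth of 343134 and 196424 reads. The order of these clusters differed between fish. In fish 2 the *mdkb* level was 442 CPM in NBN.1-like and 918 CPM in NBN.2-like cells, and in fish 5 it was 403 and 622 CPM. In fish 4 it was 739 and 327 CPM, and in fish 6 it was 629 and 257 CPM.

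The 44 MN-like cells held *mdkb* in 40 cells (868 ± 529 CPM, SD, n = 3 fish, from 258 to 1204) and *mdka* in 3 cells (0.336 ± 0.583 CPM). The 10 OPC-like cells (oligodendrocyte precursors, all from the NBN gate) held no *mdka* read and held *mdkb* in 9 cells, at 1169 CPM over their summed reads. In order of *mdka* level the RG-like cells led, and no other cluster passed 30.4 CPM in any fish. In order of *mdkb* level the RG-like cells also led, from 1124 CPM upwards, among means over fish with 5 or more cells. Over such fish their range overlapped that of the MN-like cells, which overlapped those of the NBN.2-like and NBN.1-like cells. In fish 2 the OPC-like cells (2 cells, 2299 CPM) stood above the RG-like cells (1224 CPM). In fish 3 the MN-like cells (3 cells, 1282 CPM) stood above the RG-like cells (1124 CPM). The RG-like cells stood highest in every other fish.

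**Figure D4:**
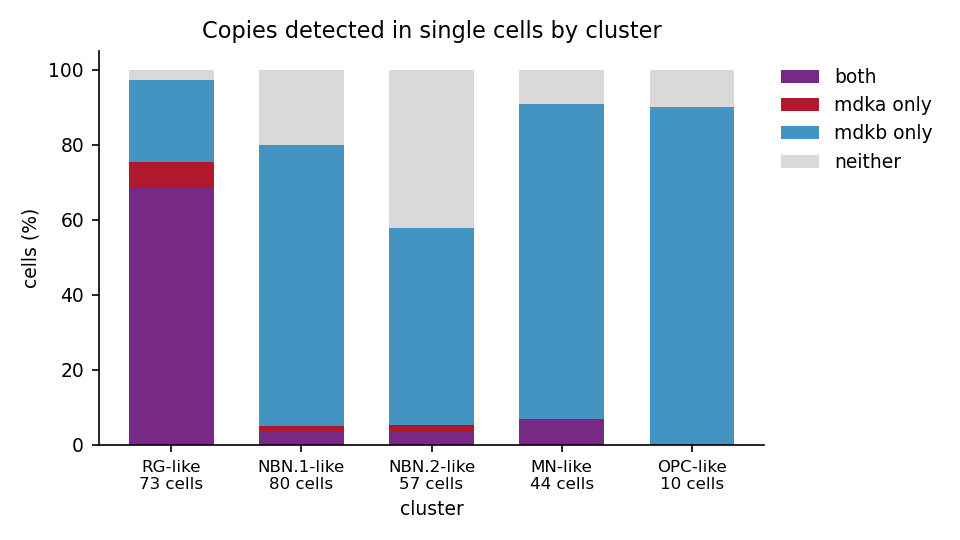
Percentage of cells in each cluster with reads of both copies, of *mdka* only, of *mdkb* only or of neither, stacked to 100%. Cells with both make up most of the RG-like cluster (50 of 73 cells), and cells with *mdkb* only make up most of the NBN.1-like (60 of 80), MN-like (37 of 44) and OPC-like (9 of 10) clusters.

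At a finer clustering the RG-like cells split into a group of 50 cells, led by *her* genes (targets of Notch), and a group of 23 cells, led by other genes with PTN among them. Both held *mdka* in a like share of cells (37 of 50 and 18 of 23) and *mdkb* likewise (44 of 50 and 22 of 23). Over summed reads *mdka* stood at 1482 and 2780 CPM and *mdkb* at 1264 and 2778 CPM. The fish were spread unevenly, with 21 and 2 cells of fish 6 and 3 and 9 cells of fish 5. These pooled values are therefore not a comparison within fish. In fish 1 to 6, *mdka* stood at 0, 1022, 1241.5, 1842, 1349 and 1486 CPM in the first group. In the second group it stood at 1793, 2718, 0, 9092.5, 2519 and 1505 CPM. For *mdkb* these levels were 345, 953, 1250, 1574, 1113 and 1104 CPM, and 1846, 2784, 422, 2869, 3521 and 2471 CPM. Fish 1 had 1 cell in the first group, and fish 3 had 1 in the second. Of the cells in these groups, 27 and 5 held *ccnd1* reads.

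*ccnd1* encodes cyclin D1, which acts in entry to the cell cycle, and was used to divide RG cells that passed into 31 with a read and 42 without. *mdka* was at 950, 1251, 1793, 534 and 1887 CPM in the *ccnd1*-positive cells of fish 1, 2, 4, 5 and 6. In the *ccnd1*-negative cells of fish 1 to 6 it was at 1982, 1321, 1278, 2814, 2920 and 973 CPM. The classes overlapped. The positive cells had the lower value in fish 1, 2, 4 and 5 and the higher in fish 6, and fish 3 had only 1 positive cell and was left out of that class.

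The log2 fold change of *mdka* in *ccnd1*-positive over *ccnd1*-negative cells was -0.54 (SE 0.507, edgeR's quasi-likelihood test, Benjamini-Hochberg adjusted p = 0.999), and it ran from -1.06 without fish 6 to -0.15 without fish 5. *mdkb* averaged 1244 ± 288 CPM (SD, n = 5 fish) in positive and 1827 ± 895 CPM (SD, n = 6 fish) in negative cells, with a log2 fold change of -0.61 (SE 0.486, edgeR, adjusted p = 0.999). With the fish as a replicate block the log2 fold changes were -0.75 for *mdka* and -0.75 for *mdkb*. After thinning they were -0.28 and -0.45. The median depth per cell was 187497 reads in positive and 282001 in negative cells. Neither copy passed the test in any of these fits. Without block or thinning, edgeR called 2 of 4058 genes (81 at an unadjusted p under 0.05) and DESeq2 called 23.

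Pleiotrophin, the other ligand of the family, was higher in the RG gate as *mdka* was. PTN stood at 314, 163, 999.9, 725, 1605 and 275 CPM in the RG gate of fish 1 to 6, and at 0.355, 0.133, 7.12, 13.5, 0.215 and 22.0 CPM in the NBN gate. The gates did not overlap, which was not counted over all genes, and its log2 fold change was 6.15 (SE 1.23, edgeR, adjusted p = 0.00327). PTN reads were found in 38 of 73 RG cells and in 13 of 164 NBN cells. Of the 38 RG cells 30 also held *mdka*, beside 54 of all 73 RG cells, and whether PTN and *mdka* shared cells was not tested.

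PTN and the genes for receptors and binding partners made a list of 25 names, of which 23 were found with 36 identifiers, and 16 of these passed the filter on low counts. By edgeR's test, 3 of the 16 were called higher in the RG gate, 1 lower, and 12 did not pass, beside 1.81% higher and 6.66% lower of all genes tested. Without PTN this was 2 of 15 higher and 1 lower. The median log2 fold change of the 16 was 0.99, beside -0.69 over all genes tested. Of the 4 called, PTN was called in all 14 alternatives and the other 3 were not.

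Zebrafish have a pair of PTPRZ1 genes, the phosphatase receptor of midkine and pleiotrophin. The copy ENSDARG00000051814 stood at 112 to 532 CPM in RG and 0 to 21.2 CPM in NBN cells (log2 fold change 4.21, SE 1.11, edgeR, adjusted p = 0.0199). This call was lost with the replicate block (edgeR, adjusted p = 0.0645) and without fish 4 or 6 (up to 0.0901). The copy ENSDARG00000020871 averaged 235 and 38.4 CPM, with the RG value above the NBN value in each of 6 fish, but did not pass (2.46, SE 1.22, edgeR, adjusted p = 0.320) other than over the 4 fish labels (0.0283). The LRP1 copies did not pass (0.97 and 0.35, edgeR, adjusted p = 0.812 and 0.899). ALK was too low for the main test, with a mean of 0.617 CPM in RG, 3.99 CPM in NBN and 13.6 CPM in MN cells. It did not pass with no filter on low counts (-2.90, edgeR, adjusted p = 0.469) or with all sorted cells (-0.07, edgeR, adjusted p = 0.990).

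Among surface proteoglycans, the syndecan *sdc4* averaged 796 CPM in RG and 124 CPM in NBN cells and was higher in 5 of 6 fish (log2 fold change 2.49, SE 0.721, edgeR, adjusted p = 0.0370). *sdc2* did not pass (2.15, edgeR, adjusted p = 0.467), nor did the glypican *gpc2* (-4.36, edgeR, adjusted p = 0.224) or nucleolin, *ncl* (0.93, edgeR, adjusted p = 0.330). Within the batch of fish 1 to 5, *gpc2* was called lower (-8.81, edgeR, adjusted p = 0.00929), and *ncl* was called higher after thinning (0.0487). SDC1 and SDC3 were not found under these names. The call of *sdc4* was lost in 5 of 14 alternatives (adjusted p in edgeR's test up to 0.148).

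Of the neural proteoglycans, *cspg5a* went the other way, with 292 CPM in RG, 734 CPM in NBN and 811 CPM in MN cells (log2 fold change -1.59, SE 0.447, edgeR, adjusted p = 0.0311). All 6 fish had this direction, and the call held in only 2 of 14 alternatives. Its paralogue *cspg5b* averaged 301 and 21.3 CPM (3.61, SE 1.29, edgeR, adjusted p = 0.115) and was called higher in 5 of 14 alternatives, DESeq2 among them (adjusted p = 0.00904).

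**Figure D5:**
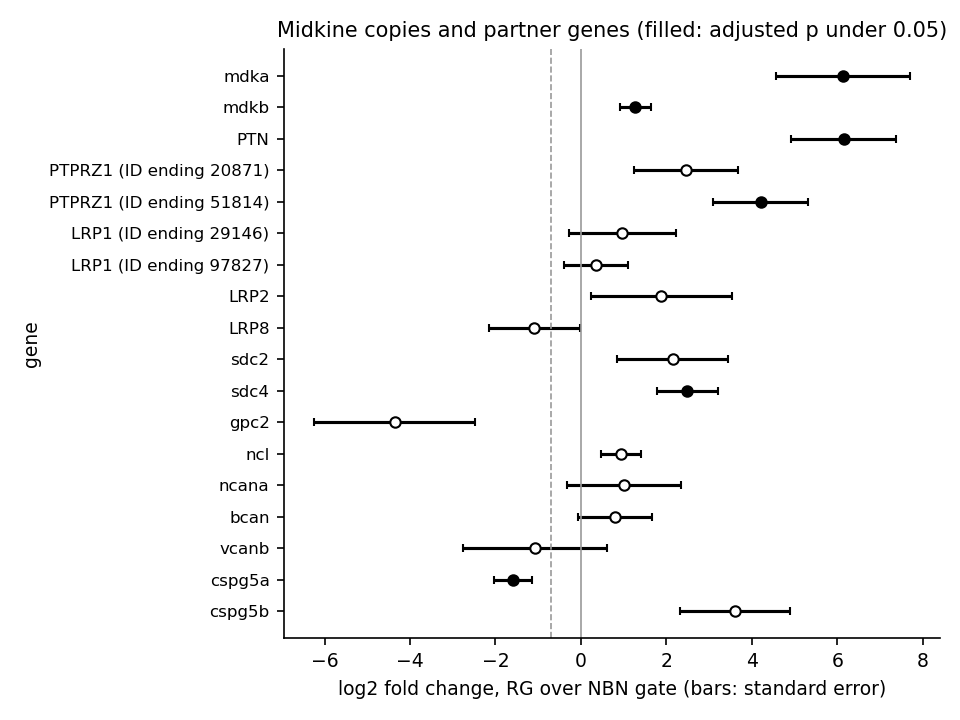
log2 fold change between the RG and NBN gates for both midkine copies and the 16 partner genes tested, with standard errors derived from edgeR's F statistic. Filled points have an adjusted p under 0.05 in edgeR, the solid line marks 0 and the dashed line marks the median of all genes, -0.69. *mdka* (6.13) and PTN (6.15) lie together at the right, and *cspg5a* (-1.59) is the filled point left of 0.

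The genes whose levels over the 264 cells were most like those of *mdka*, by Pearson's r of log2(CPM + 1) among 6912 genes, were SLC1A3 (a glutamate transporter, 0.81), *si:ch211-251b21.1* (0.80), *selenop* (selenoprotein P, 0.75), *fgfbp3* (a binding protein of fibroblast growth factors, 0.74) and GJA1 (a gap junction protein, 0.72). Within RG cells alone the same genes had r of 0.30 to 0.56. These genes were found in 68.5% to 90.4% of RG cells, 1.83% to 8.54% of NBN cells and 11.1% to 25.9% of MN cells, counting any read. By mean level the MN gate was the lowest for *selenop*, *fgfbp3* and GJA1, at 1.16, 0.582 and 0.776 CPM. In NBN cells these stood at 12.8, 23.7 and 15.5 CPM, and in RG cells at 2052, 2501 and 2676 CPM.

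Over all cells, no gene was as much like *mdkb*. Its leading genes were SLC1A2 (a glutamate transporter, 0.35), ATP1B4 (0.33), FABP7 (a fatty acid binding protein of glia, 0.32), CD82 (a tetraspanin, 0.32) and *mgll* (monoacylglycerol lipase, 0.32). Within RG cells alone these genes had r of 0.16 to 0.37, a range that overlapped that of the genes most like *mdka*. Between the copies r was 0.25 over all cells and 0.15 within RG cells, which ranked *mdkb* 385th for *mdka* and *mdka* 20th for *mdkb*. These are descriptions over cells that share fish and depth.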

How the data were processed

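Per the labels and the methods, the authors sorted single cells of 3 gates by FACS, made SMART-seq2 libraries, aligned single-end reads to GRCz10 with GSNAP 2017-08-15, counted unique reads on Ensembl genes with featureCounts 1.5.3 and deposited raw counts of 32266 genes in 370 cells. The counts are reads, not molecules.

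Cells were kept as in the methods: log10 reads above 4.5, log10 genes between 2.7 and 3.9 (a gene counts from 2 reads on), under 50% of reads in the top 50 genes, under 20% mitochondrial and over 20% mapped. A spike-in filter was left out, since no spike-in counts were at hand. The paper reports the same total of cells kept but other counts per gate, so the cells kept differ from the study's. Fish 1 to 5 were read from sample names, and the cells of batch bfx811 as fish 6, to match the number of fish in the study. The fish label, with 4 values that follow plates, served as an alternative.

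Reads were summed per fish and gate, or by *ccnd1* class with 3 or more cells. The test was that of edgeR 4.0.16 (TMM, its low-count filter, quasi-likelihood test, Benjamini-Hochberg, 0.05), or DESeq2 1.42.0 as an alternative, in R 4.3.3. The SE of an edgeR log2 fold change was derived from the test: its absolute value over the square root of the quasi-likelihood F statistic. Gates of 1 fish come from the same animal, so they are paired. With gate means removed, r between them was -0.0748 to 0.0120. The main fit has no block, and the blocked fit was an alternative. Shares were compared by exact sign-flip tests in Python 3.11.15. Clusters came from scran 1.30.0, scanpy 1.11.5 and igraph 0.11.9 without 33 midkine-related genes. Clusters needed 5 cells a fish for a mean. Named were both copies, called partner genes with set receptors, and the 5 genes most like each copy (mean of at least 20 CPM, pseudocount 1). The genes, lists and tests were chosen with earlier results of these data known.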

Additional observations from a re-analysis of the deposited data

Results flagged for a closer look

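In 5 of 20 groups of 6 fish, the highest or lowest fish lay far from the nearest other fish for its group's range (Dixon's criterion). Chance alone gives about 1 in 20 for independent groups of normally distributed values. Some of these groups share reads or hold values fixed at a limit, so that rate need not apply to them. In the NBN gate, fish 6 was far above the others in *mdka* level (92.6 CPM) and in *mdka* as a proportion of midkine reads (18.6%), and both values rest on the same 299 reads, 250 of them in 1 cell. In the RG gate, fish 5 was the highest in *mdkb* level (2913 CPM). Fish 3, with 5 RG cells, was the lowest in the share of RG cells with *mdkb* (60%) and in co-detection minus the product of shares (-16 points).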

How the results depend on the processing

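*mdka* kept its direction and its call between the RG and NBN gates in every alternative run, with log2 fold changes of 5.91 (without fish 2) to 10.7 (replicate block, adjusted p in edgeR's test 4.44e-05). *mdkb* kept its direction, and its log2 fold change was 1.40 with no filter on low counts (edgeR, adjusted p = 0.0643), 1.22 with the replicate block (0.0970) and 1.27 to 1.70 without each fish in turn (0.0151 to 0.115). The count of genes called was 711, against 1090 in DESeq2, 1232 with no filter and 1035 with the replicate block. Other size factors moved the median of all genes from -0.69 to -0.48 on the log2 scale, and the higher and lower calls from 152 and 559 to 198 and 542.

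The *mdka* share differed by 66.4 to 70.2 points without each fish and by 69.0 points over the 4 fish labels, and the proportion of midkine reads by 45.2 to 49.7 points without each fish; 5 fish cannot go below an exact p of 0.0625, nor 4 labels below 0.125. With all sorted cells the *mdkb* share difference reversed to -16.5 points and RG co-detection to 10.2 points. Without each fish, RG co-detection ran from -3.97 to 0.172 points. For *mdkb*, the MN over NBN ratio was 1.42 on the log2 scale and 1.73 as a mean of CPM over cells. Of 16 partner genes tested, 3 were called higher and 1 lower, beside 152 and 559 of all 8393 genes. With the replicate block 2 of 16 were higher and 0 lower, beside 198 and 837 of 8393. Without the RG-like NBN cell 2 of 15 were higher and 0 lower, beside 166 and 522 of 8339. After thinning 5 of 11 were higher and 1 lower, beside 233 and 453 of 4807. Without each fish 1 to 4 partner genes were called, beside 687 to 877 of all genes. The cause of these shifts was not tested. The RG gate held as few as 5 cells a fish. The smallest number of reads in a cell kept was 38724.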
